A study of Homo sapiens with 2 samples.

Results

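Gene desert regions are the accessible regions of H1 human embryonic stem cells that lie far from protein-coding genes. A region was taken when its strongest summit, the position of highest signal, was more than 500 kb from the 5′ end of every protein-coding gene and outside every protein-coding gene body. Of 155881 distinct accessible regions on the autosomes, 11145 (7.15%) met this rule, out of 160327 regions in the whole list. H1 is an established pluripotent line, and the cells were thawed from frozen stock, treated with DNase I and purified on Ficoll before Omni-ATAC, a form of ATAC-seq in which a transposase cuts open DNA. The 2 samples, replicates 1 and 2, form 1 group with no second condition, and the labels do not say whether they came from separate cultures. They share 1 peak list with no value per sample, so no spread between replicates can be given, and library depths were not analysed here. The list's fold, the height of a summit over a background that the sources do not describe, is the authors' own value. Intervals are 95% exact intervals and cover counting error only. Regions are not replicates of a condition, and neighbouring regions are not independent. The labelled cell type was checked by 12 pluripotency markers, among them POU5F1, SOX2 and NANOG, and 12 of 12 had a summit within 2000 bp of the canonical transcript start. For POU5F1 it was 1384 bp away, and the folds ran from 2.89 at TDGF1 to 17.5 at TERF1. The share of all protein-coding genes with such a summit is not given, so the check is a weak one.

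A gene desert is a long stretch of genome without protein-coding genes. Open sites in such stretches are often distal enhancers, which act on promoters far away along the same chromosome, or sites of CTCF, the protein that with cohesin anchors chromatin loops. In human pluripotent cells many distal open sites are bound by OCT4 (POU5F1) and SOX2, which sit side by side on a composite DNA motif. TEAD factors, the DNA-binding partners of YAP, and AP-1, the FOS and JUN family, bind distal sites in many cell types. Deserts are not empty of annotation, since long noncoding RNA (lncRNA) genes and pseudogenes lie in them.

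The sequences of 9 gene desert regions introduce the motifs and sites described further on. Each line gives the 101 bases around the summit of a region, read from the hg38 plus strand. Capitals mark the motif found by search on both strands, TTGTNATGC for OCT4-SOX2, CNAGNGGGC for CTCF, ACATTCC for TEAD and TGANTCA for AP-1, where N is any base. The OCT4-SOX2, CTCF, TEAD and AP-1 examples are regions with the highest fold among the desert regions that hold the motif. The TENM3 flank is the strongest region of the stretch with the most regions and holds none of the 24 motif strings searched. Its letters gcagagggc differ from the CTCF string in the first letter only, so a CTCF site can still be present. PCGEM1 is at the start of a lncRNA gene.
OCT4-SOX2 first, chr6:61606625-61606725, plus strand: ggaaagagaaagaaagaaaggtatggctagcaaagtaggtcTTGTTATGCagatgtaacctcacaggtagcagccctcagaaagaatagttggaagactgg
OCT4-SOX2 second, chr3:176193195-176193295, plus strand: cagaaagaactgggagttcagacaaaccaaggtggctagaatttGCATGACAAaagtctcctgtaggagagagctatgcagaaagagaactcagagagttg
OCT4-SOX2, the third, chr5:89703952-89704052, plus strand: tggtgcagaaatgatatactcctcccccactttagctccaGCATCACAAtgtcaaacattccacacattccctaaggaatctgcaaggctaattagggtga
CTCF first, chr12:74021996-74022096, plus strand: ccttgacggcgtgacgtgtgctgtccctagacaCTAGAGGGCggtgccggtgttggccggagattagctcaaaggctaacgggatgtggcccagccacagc
CTCF second, chr4:33061074-33061174, plus strand: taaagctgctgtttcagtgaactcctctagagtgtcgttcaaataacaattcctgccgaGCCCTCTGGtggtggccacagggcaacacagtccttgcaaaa
TEAD first, chr7:115526431-115526531, plus strand: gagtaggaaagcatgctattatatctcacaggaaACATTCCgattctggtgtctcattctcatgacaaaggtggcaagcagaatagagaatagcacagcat
AP-1 first, chr4:96736674-96736774, plus strand: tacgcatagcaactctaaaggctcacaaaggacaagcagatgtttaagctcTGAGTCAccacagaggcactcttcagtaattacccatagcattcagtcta
TENM3 flank, chr4:179867448-179867548, plus strand: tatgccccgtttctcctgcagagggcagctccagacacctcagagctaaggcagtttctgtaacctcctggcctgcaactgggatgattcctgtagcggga
PCGEM1, chr2:192749735-192749835, plus strand: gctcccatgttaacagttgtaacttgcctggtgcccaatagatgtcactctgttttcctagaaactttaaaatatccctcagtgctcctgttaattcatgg

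The OCT4-SOX2 examples had folds of 22.7, 22.7 and 20.3. The second example held the string running into the octamer ATGCAAAT on the minus strand, with the letters ATGC shared, and its window was 1 of 17 with both the OCT4-SOX2 and the OCT string. The 2 CTCF examples had folds of 23.0 and 22.8, the TEAD example 24.8, the AP-1 example 24.4, the TENM3 flank 25.6 and PCGEM1 20.8. The third CTCF region, with a fold of 22.7, belongs to a group of regions that share sequence, shown next.

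Some gene desert regions were copies of the same sequence. Among 301-base windows around the summits, 801 members (7.19%, interval 6.71% to 7.68%) aligned to another member over at least 150 bases at 80% identity or more, in 159 groups. The lines below give 3 strong members with the CTCF string from a group of 34 regions, then 4 with the octamer ATGCAAAT, the OCT string, from a group of 18 regions. Each is turned to the strand on which the motif, in capitals, reads forward.
CTCF group copy 1, chr1:194342955-194343023, minus strand: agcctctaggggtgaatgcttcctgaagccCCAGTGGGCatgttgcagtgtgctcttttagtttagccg
CTCF group copy 2, chr6:119966665-119966733, minus strand: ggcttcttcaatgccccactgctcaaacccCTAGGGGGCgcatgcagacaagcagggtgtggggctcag
CTCF group copy 3, chr2:125386254-125386322, plus strand: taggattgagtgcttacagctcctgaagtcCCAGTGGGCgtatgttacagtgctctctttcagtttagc
OCT group copy 1, chr10:9911618-9911685, minus strand: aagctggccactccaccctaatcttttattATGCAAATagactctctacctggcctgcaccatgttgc
OCT group copy 2, chr1:83208652-83208719, minus strand: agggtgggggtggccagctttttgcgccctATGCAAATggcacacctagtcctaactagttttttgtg
OCT group copy 3, chr17:71081132-71081199, plus strand: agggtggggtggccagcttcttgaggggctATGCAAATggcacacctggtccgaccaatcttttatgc
OCT group copy 4, chr3:104133818-104133885, minus strand: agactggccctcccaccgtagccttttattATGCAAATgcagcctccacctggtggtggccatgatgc

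In the CTCF group copies 1 and 3 read alike around the capitals, while copy 2 had other letters there. In the OCT group copies 2 and 3 read alike, as did copies 1 and 4. In the CTCF group 29.4% of 34 regions held the string within 50 bp of the summit, against 2.70% of all gene desert regions and 4.51% of all autosomal regions. The group had folds of 2.98 to 22.7 with a median of 5.22 and lay on 12 chromosomes. In the OCT group 44.4% of 18 regions held the octamer, against 3.01% of all gene desert regions and 2.28% of all autosomal regions. Its median fold was 7.99 (interval 5.75 to 12.1), and the lowest of its regions had 4.79. Since the groups were singled out after their motif content was seen, these shares are a description.

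The larger groups held other sequences. The largest group had 48 regions on 14 chromosomes with a median fold of 5.38, and the third had 31 regions on 10 chromosomes with a median of 4.58. Neither held the CTCF, OCT4-SOX2 or OCT string in any window. A group of 27 regions on 14 chromosomes held CAGCAGG, the string searched for ZIC factors, in 51.9% of windows, with a median fold of 7.14. This group was also singled out after its values were seen.

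Most copies of such sequences in the genome carried no summit, to a degree that varied between groups. The region with the most relatives in each group was aligned to all autosomes at the same limits. For the largest group, 12 of 599 copies inside deserts held a summit (2.00%, interval 1.04% to 3.47%), against 57 of 2315 elsewhere (2.46%). For the ZIC-string group, 20 of 52 copies inside deserts held one (38.5%, interval 25.3% to 52.98%), against 80 of 186 elsewhere (43.0%). The intervals of desert copies and other copies overlapped in both groups. The CTCF group had 12 of 110 desert copies with a summit (10.9%) and 46 of 456 elsewhere (10.1%). The OCT group had 7 of 29 in deserts (24.1%, interval 10.3% to 43.5%) and 65 of 190 elsewhere (34.2%, interval 27.5% to 41.4%). Aligned members had a median identity of 81.0% in the largest group and in the CTCF group. It was 81.5% in the ZIC-string group and 82.8% in the OCT group. Where copies are near-identical, reads can be placed on the wrong copy, and how such reads were filtered is not given.

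The gene deserts of this rule formed 396 stretches, of which 395 held sequenced bases. They covered 356.3 Mb, or 12.9% of the sequenced autosomes, and 367 of them had at least 1 region. Gene desert regions stood at 31.3 per Mb (interval 30.7 to 31.9), against 60.3 per Mb for the other regions in the rest of the autosomes. They covered 1.47% of the stretches, against 3.27% of the rest covered by other regions. Deserts were thus sparser in open regions than the rest of the genome, beyond counting error.

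Density fell with distance from genes, while the median fold changed little beyond 10 kb. Regions outside gene bodies stood at 103 per Mb under 10 kb from a protein-coding 5′ end, 56.5 at 10 to 50 kb, 55.7 at 50 to 100 kb, 53.2 at 100 to 200 kb and 47.7 at 200 to 500 kb. The density of gene desert regions was 38.1 per Mb (37.3 to 39.0) at 500 to 1000 kb and 22.1 (21.4 to 22.9) beyond 1000 kb. Median fold was 6.82 under 10 kb, between 5.22 and 5.43 in the next 4 steps, and 5.33 in both desert steps. Leaving out sequence that repeats itself at the period of alpha satellite, the repeat of human centromeres, left 127.5 of the 152.6 Mb beyond 1000 kb, and the density there was then 26.4 per Mb.

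**Figure D1:**
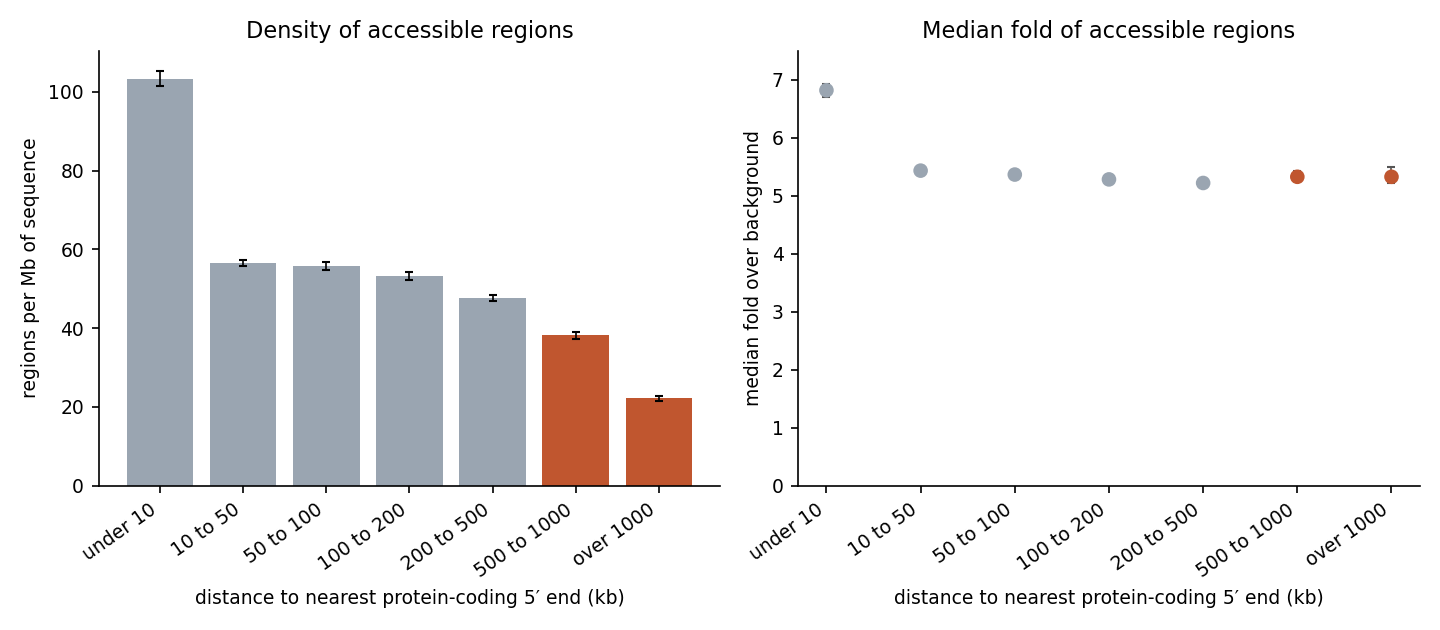
Regions outside protein-coding gene bodies by distance of the summit to the nearest protein-coding 5′ end (x axes, kb). Left, regions per Mb of sequence with exact Poisson intervals; right, median fold over background with intervals from order statistics; gene desert regions are the 2 rightmost, red steps, at 38.1 and 22.1 per Mb and a median fold of 5.33 each.

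The stretches with gaps or satellite-like sequence carried few regions. They were those with at least 0.01 Mb of unsequenced bases or 0.05 Mb of satellite-like sequence. There were 29 of them, with 91.4 Mb and 579 gene desert regions, or 6.34 per Mb (5.83 to 6.87). The other 366 stretches, 265.0 Mb, held 10566 regions at 39.9 per Mb (39.1 to 40.6). Within these, density was 42.9 per Mb at 500 to 750 kb, 38.7 at 750 to 1000 kb, 36.7 at 1000 to 1500 kb, 36.6 at 1500 to 2000 kb and 32.3 (26.2 to 39.3) at 2000 to 3000 kb. The decline with distance was thus smaller there, and the G+C content of the sequence went from 37.0% in the first of these steps to 35.4% in the last. Its part in the density was not tested. This split of the stretches was made after seeing the data.

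Gene desert regions were spread over many stretches and not gathered in a few. The 10 stretches with the most regions held 1392, or 12.5% of all. Among the 91 stretches of 1 Mb or more without gaps or satellite-like sequence, none lacked a region, density ran from 12.0 to 75.1 per Mb with a median of 38.3, and the median fold per stretch ran from 4.37 to 7.30. The distance between a gene desert region and its nearest neighbour had a median of 7.29 kb (7.07 to 7.53), against 5.29 kb for other distal regions, meaning autosomal regions of any other kind whose summit was outside the 1000 bp around every protein-coding 5′ end.

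The stretch with the most regions was chr4:177942438-181643986, between AGA, a lysosomal enzyme gene, and TENM3, a teneurin of neuronal cell adhesion. It held 211 regions, 57.0 per Mb, with folds from 2.63 to 25.6 and a median of 5.34. Its strongest region, chr4:179867315-179867818, had a fold of 25.6 and a −log10 p of 432.8, and lay 2276 kb from the TENM3 start. The region at chr4:178917754-178918182 came next with 24.1, and these were the only 2 of the 211 at 20 or more. The longest part of the stretch without a summit was 102.2 kb, and its 37 whole windows of 100 kb held between 1 and 14 regions each.

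The second stretch, chr13:53528814-56640917 between OLFM4, a secreted glycoprotein gene, and PRR20A, held 167 regions at 53.7 per Mb with a median fold of 5.01. Its strongest, at chr13:54733534-54733989, had a fold of 20.1. The third, chr18:38065828-41455233 between CELF4, an RNA-binding splicing regulator, and PIK3C3, a phosphatidylinositol 3-kinase, held 143 regions at 42.2 per Mb with a median of 5.75. Its strongest, at chr18:39591477-39592127, had a fold of 21.8 and held the AP-1 string. In all 3 stretches strong regions stood among weak ones: 41 of 211, 31 of 167 and 23 of 143 had a fold of 10 or more. Such a fold was found in 18.2% (17.5% to 19.0%) of all gene desert regions and 16.5% of all autosomal regions, so these stretches were ordinary in this.

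**Figure D2:**
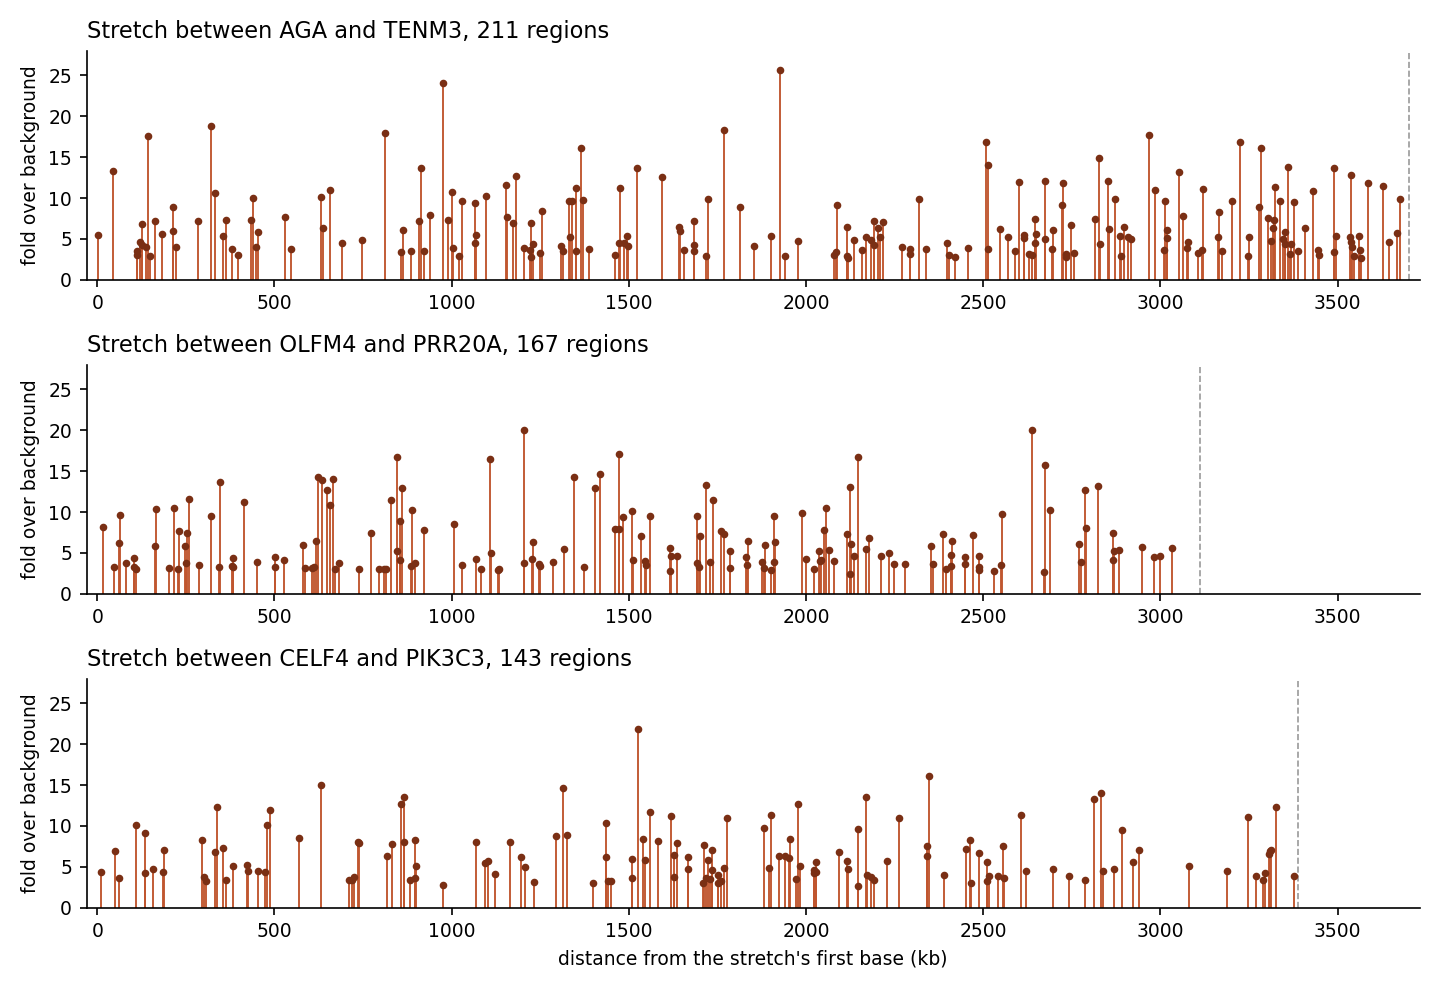
Fold over background (y axes) of every gene desert region in the 3 stretches with the most regions, by distance of the summit from the first base of the stretch (x axis, kb; dashed line, end of the stretch). Each stem is 1 region; folds ran from 2.45 to 25.6, with 2, 1 and 1 regions at 20 or more.

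The next 7 stretches by number of regions held 117 to 139. They lay between PCDH7 and ARAP2 on chromosome 4 (139 regions), TENM4 and FAM181B on 11 (127), PLA2G4A and BRINP3 on 1 (125), SEL1L and FLRT2 on 14 (124), MAT2B and TENM2 on 5 (121), PABPC4L and PCDH18 on 4 (118), and B3GALT2 and KCNT2 on 1 (117). Their median folds ran from 5.12 to 5.75, close to the median of all gene desert regions.

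Of the 28 stretches with sequence and no region, 20 were without gaps or satellite-like sequence, and these were short, from 0.000655 to 0.254 Mb. The other 8 were longer. The longest were chr18:15228273-20611812 between ANKRD30B and ROCK1, with 5.32 Mb of sequence, and chr7:57950178-63498848 between ZNF716 and ZNF722, with 5.25 Mb. The next were on chromosomes 16 (3.34 Mb), 11 (3.31 Mb) and 12 (3.18 Mb). The first 2 held 3.28 and 2.88 Mb of satellite-like sequence, and the one on chromosome 16 held 7.90 Mb of unsequenced bases. The part of such sequence in the absence of regions was not tested.

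Chromosomes differed in how many of their regions were gene desert regions. The share was highest on chromosome 13, with 942 of 5455 (17.3%, interval 16.3% to 18.3%), and on chromosome 21, with 207 of 1426 (14.5%). It was lowest on chromosome 19, with 28 of 3207 (0.873%). Chromosome 4 held the most, 1331, in 36.8 Mb of desert sequence. Desert sequence itself was short on chromosome 19, at 4.25 Mb.

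Gene desert regions had nearly the same median fold as other distal regions but more of them had a very high fold. The median was 5.33 (5.28 to 5.43) in gene desert regions, against 5.19 (5.16 to 5.22) in other distal regions and 8.61 at protein-coding promoters. A fold of 15 or more was found in 593 gene desert regions (5.32%, interval 4.91% to 5.75%), against 3.00% of other distal regions. A fold of 20 or more was found in 90 (0.808%, interval 0.650% to 0.992%), against 0.365% (0.333% to 0.399%) of other distal regions and 0.795% of promoter regions. Intergenic regions 100 to 500 kb from a protein-coding 5′ end, a part of the other distal regions, came between. They had 4.21% (3.98% to 4.46%) at 15 or more and 0.619% (0.529% to 0.720%) at 20 or more. At 20 or more their interval overlapped that of gene desert regions. Folds under 4 were less frequent in gene desert regions, 25.9% against 29.4% of other distal regions. By −log10 p the median of gene desert regions was lower, 24.2 (23.4 to 24.7) against 25.8 (25.5 to 25.9) in other distal regions. The 90th percentile of −log10 p was higher, 120.5 against 112.8. In the intergenic regions 100 to 500 kb away the median −log10 p was also 24.2. The median width was 420 bp (414 to 424), against 429 bp in other distal regions, and 74.6% had 1 summit, against 73.4% of other distal and 25.0% of promoter regions.

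**Figure D3:**
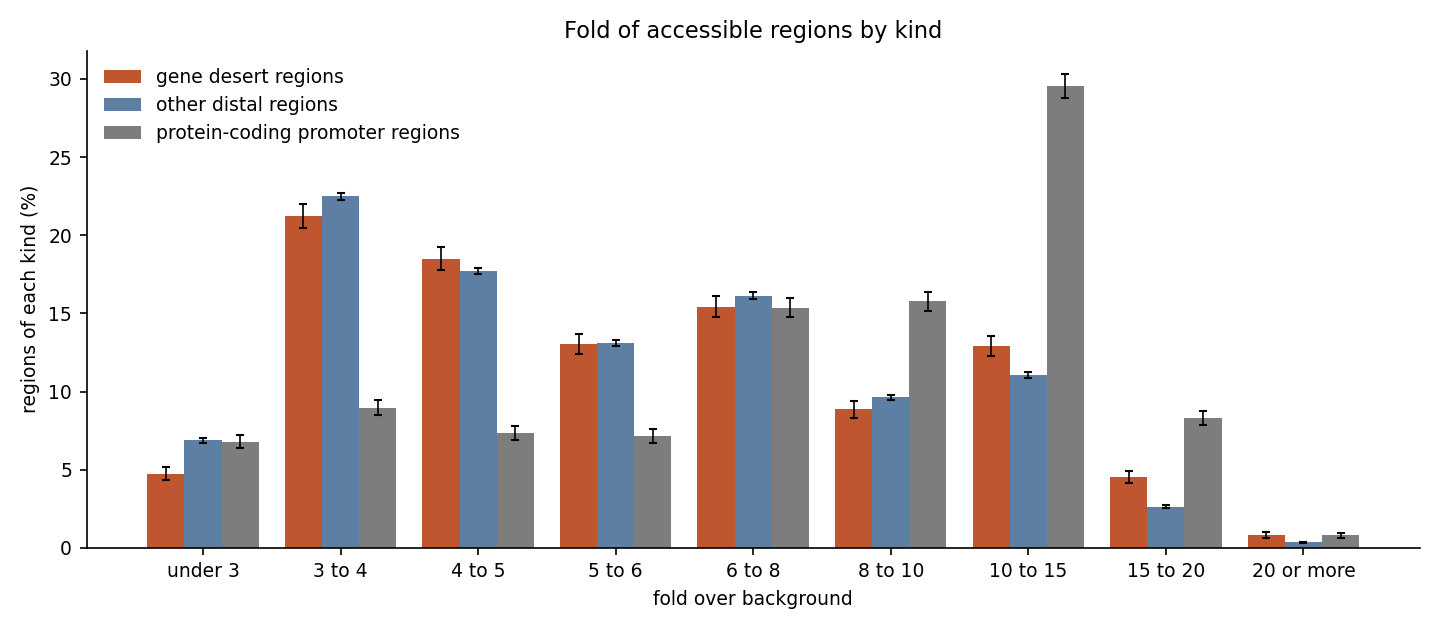
Percent of each kind of region (y axis, with exact binomial intervals) by fold over background (x axis). The fold classes are of unequal width. In the class of 3 to 4, gene desert regions (red) have 21.2% and other distal regions (blue) 22.5%; in that of 10 to 15 promoter regions (grey) have 29.5%; at 15 to 20 gene desert regions have 4.51% and other distal regions 2.64%.

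The 3 highest folds in gene deserts, 50.5, 47.1 and 34.3, were at sequence that aligned to mitochondrial DNA. Mitochondrial DNA is abundant and has no nucleosomes, and reads from it can be placed on its nuclear copies. In all, 5 gene desert regions (0.0449%) aligned to it over at least 50 bases at 80% identity, on chromosomes 21 and 17, the others with folds of 7.02 and 5.07. Of 144736 other autosomal regions 37 did (0.0256%, interval 0.0180% to 0.0352%). That interval overlapped the one of gene desert regions, 0.0146% to 0.105%. Without the 5 aligned regions the median fold of gene desert regions was 5.33.

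Of the regions not aligned to mitochondrial DNA, the strongest had a fold of 27.5, at chr8:111235998-111236668, and its summit was 307 bp upstream of the 5′ end of the lncRNA LINC01609. The TENM3 flank followed with 25.6, then chr7:115526259-115526779 with 24.8, which held the TEAD string and lay 604.4 kb from MDFIC. Next were chr8:110822128-110822633 with 24.6, chr4:96736283-96736915 with 24.4, chr1:188782109-188782773 with 24.3, and the second region of the TENM3 stretch with 24.1. These regions lay between 604.4 and 2276 kb from the nearest protein-coding 5′ end, and 1 of them held a summit at a lncRNA 5′ end.

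The farthest gene desert regions were of ordinary strength. The median distance to the nearest protein-coding 5′ end was 778.3 kb, 3375 gene desert regions (30.3%) lay beyond 1000 kb and 210 beyond 2000 kb. The 3 farthest were on the short arm of chromosome 21, at chr21:5013535-5013919 and 2 neighbours, 5508, 5500 and 5499 kb from TPTE, with folds of 4.26, 5.89 and 4.55. That distance spans 1450 kb of unsequenced bases. With no unsequenced base between, the farthest was chr4:33523276-33523835, 2721 kb from ARAP2, with a fold of 5.96, a region chosen after its values were seen.

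At the limit of the rule, the members just inside lay 500009, 500024 and 500026 bp from NUDT12, FUT8 and BHLHE22 and had folds of 5.43, 2.77 and 4.32. The regions just outside lay 499933, 499905 and 499899 bp from SPHKAP, SEMA3D and STIM2, with folds of 15.4, 7.14 and 4.60.

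The widest gene desert regions were chr13:55576294-55578547 with 2254 bp, chr10:53357560-53359553 with 1994 bp and chr10:107913606-107915577 with 1972 bp. Their folds were 7.86, 6.24 and 11.3. The third, in an intron of the lncRNA LINC01435 near SORCS1, also had 7 summits, as many as chr9:63816814-63818432 at a pseudogene 5′ end, which had a fold of 16.5. Of those with 6 summits, the strongest was chr4:180057843-180059567 with 6.51. Only 3.22% of gene desert regions were 1000 bp or wider, against 5.20% of other distal and 52.1% of promoter regions.

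Most gene desert regions had no lncRNA gene or pseudogene at the summit. This was so for 7546 (67.7%, interval 66.8% to 68.6%), against 74.8% of desert sequence in tiles of 1 kb. Another 3144 (28.2%) lay in lncRNA introns, which made up 22.4% of desert tiles. The median fold was 5.33 in both classes. The tile shares are not given apart for the stretches with gaps or satellite-like sequence, which held few regions.

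LncRNA starts held more regions than their share of desert sequence. Of gene desert regions 190 (1.70%, interval 1.47% to 1.96%) had the summit within 1000 bp of a lncRNA 5′ end, against 0.583% of desert tiles. Among intergenic regions 100 to 500 kb away from protein-coding starts it was 2.74%. Seen from the genes, 192 of 1075 desert lncRNA genes (17.9%, interval 15.6% to 20.3%) had a region at the 5′ end, against 26.5% (25.8% to 27.3%) of the lncRNA genes outside deserts, leaving out those within 2 kb of a protein-coding gene’s start. At these 192 starts the summit lay at a median of −24.5 bp, that is upstream, and 46.9% were within 200 bp.

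The highest folds at desert lncRNA starts after LINC01609 were 20.8 at PCGEM1, known as a prostate lncRNA, and 18.1 at LINC03000. ANKRD20A5P on chromosome 9 had 17.9, ENSG00000254526 had 17.6 and ENSG00000289158 had 17.4. ENSG00000249984 had 16.3, LINC01550 had 16.2, and ENSG00000235564 had 16.1. A single region of fold 16.1 served LINC02372 and its divergent neighbour ENSG00000256286 on chromosome 12. The median over the 192 genes was 6.19, with a shared region counted once per gene. Over the 190 regions at lncRNA starts the median was 5.61 (4.86 to 6.50), against 5.33 (5.28 to 5.43) in all gene desert regions. Of the 10 regions, that of ANKRD20A5P stood out by its CpG content, with an observed to expected CpG ratio of 0.858, while the others had ratios of 0.0739 to 0.394.

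Nearly all gene desert regions were poor in CpG. The median ratio was 0.149 (0.147 to 0.152), against 0.198 (0.197 to 0.199) in other distal regions. Only 136 gene desert regions (1.22%) had a ratio of 0.6 or more, against 6.53% of other distal and 79.1% of promoter regions. The G+C content of the 101 bases around the summit had a median of 46.5%, against 34.7% in the windows beside, centred 500 bp before and after the summit and free of any listed region. Open sites in deserts were therefore richer in G+C than the sequence around them, and the part of G+C content in the motif shares below was not tested.

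The motif shares were taken within 50 bp of the summit. The OCT4-SOX2 string TTGTNATGC was in 136 gene desert regions (1.22%, interval 1.02% to 1.44%), against 0.987% of other distal regions, 0.926% of all autosomal regions and 0.102% of promoter regions. It was in 0.265% of the windows beside gene desert regions, a ratio of 4.61. Written backwards, the string was in 0.0538% of the summit windows and 0.0208% of the windows beside, a ratio of 2.59. Backwards it holds a CpG, in which these regions are poor, so its low share is not a matched control. Read forwards, the string was in 1.19% (1.07% to 1.33%) of intergenic regions 100 to 500 kb away, with a ratio to the windows beside of 3.95. In other distal regions that ratio was 3.91. Of the 136, 17 also held the OCT string, which shares the letters ATGC with it, and 10 held the SOX string.

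The OCT string ATGCAAAT was in 3.01% of gene desert regions (2.70% to 3.34%), against 2.39% (2.30% to 2.47%) of other distal regions and 1.05% of the windows beside. The SOX string CATTGTT, which shares TTGT with OCT4-SOX2, was in 3.35% (3.02% to 3.70%), against 2.58% (2.49% to 2.66%) of other distal regions and 2.45% of all. The intervals of OCT and SOX were apart from those of other distal regions, while those of OCT4-SOX2 overlapped, from 1.02% to 1.04%. Intergenic regions 100 to 500 kb away held OCT in 2.74% (2.55% to 2.94%) and SOX in 3.03% (2.83% to 3.24%), and both intervals overlapped those of gene desert regions.

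CTCF was less frequent in gene desert regions. The string CNAGNGGGC was in 301 gene desert regions (2.70%, interval 2.41% to 3.02%), against 4.56% (4.45% to 4.67%) of other distal regions, 5.47% of promoter regions and 4.51% of all. Against the windows beside, with 0.301%, the ratio was 8.97, close to the 7.49 of other distal regions. The share fell along the distance steps, 6.56% under 10 kb, 5.88%, 4.78%, 3.64% and 2.71% in the steps up to 500 kb, and 2.70% in both desert steps. The string is rich in G and C, and the G+C content of the summit windows fell along the same steps, with a median of 62.4% in the first and 45.5% in the last. Of the 301 regions, 18 also held the ZIC string and 7 the GC box string.

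TEAD and AP-1 strings were as frequent in gene desert regions as in other distal regions, within counting error. The TEAD string ACATTCC was in 4.24% (3.88% to 4.63%), against 4.18% (4.08% to 4.29%), and in 3.90% of all regions. The AP-1 string TGANTCA was in 5.08% (4.68% to 5.50%), against 4.78% (4.67% to 4.90%), and in 4.52% of all. Their ratios to the windows beside were 2.94 for TEAD and 1.56 for AP-1. The weaker AP-1 ratio came with a background of 3.26% in the windows beside. Both strings occurred together in 20 regions.

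**Figure D4:**
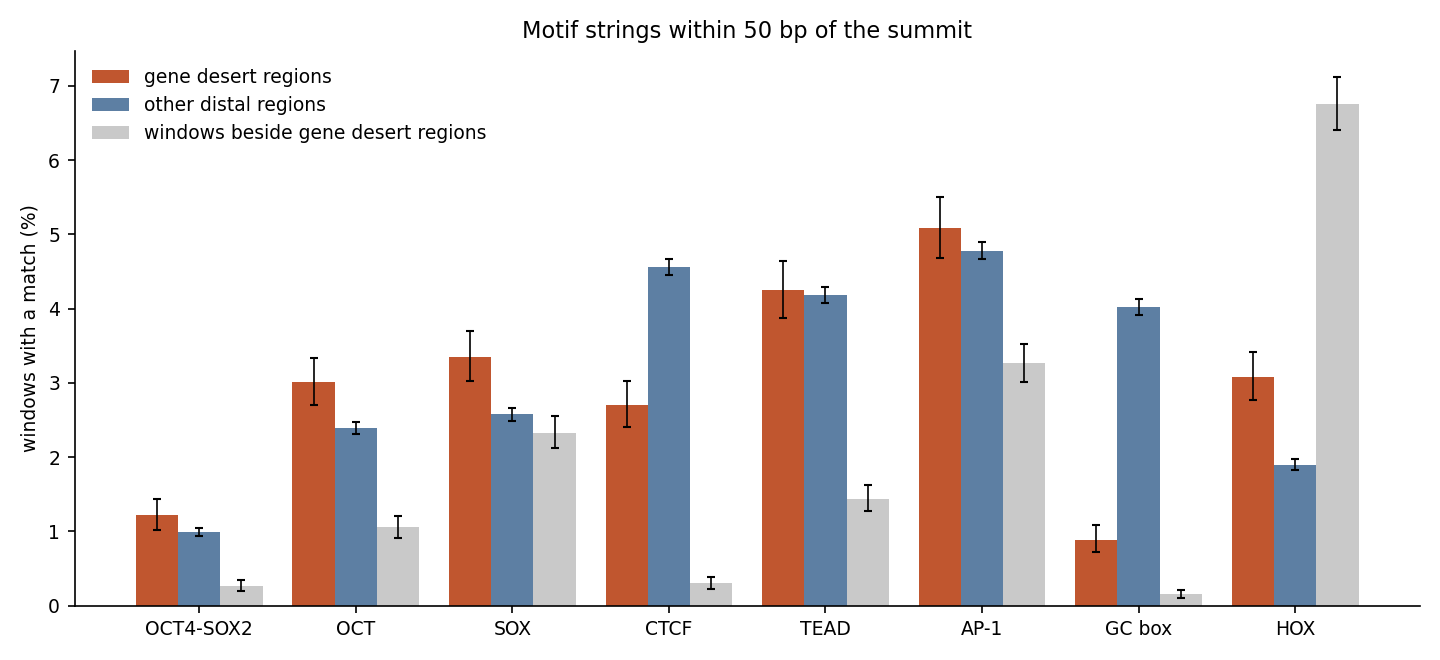
Percent of windows with a match within 50 bp of the summit (y axis, with exact binomial intervals) for 8 motif strings, in gene desert regions (red), other distal regions (blue) and windows 500 bp beside gene desert regions (grey). CTCF is at 2.70% and 4.56%, the GC box at 0.888% and 4.03%, and the HOX string at 3.08% in gene desert regions and 6.75% in the windows beside them.

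The strongest motif-bearing regions are named here, and their large distance from genes was set by the rule for gene desert regions. For OCT4-SOX2 they were chr6:61606491-61606934, 679.5 kb from KHDRBS2, chr3:176193076-176193576, 1035 kb from TBL1XR1, a subunit of a corepressor complex, and chr5:89703640-89704282, 705.8 kb from CETN3, which also held the TEAD string. For CTCF they were chr12:74021770-74022345, in an intron of the lncRNA LINC02394, chr4:33060788-33061309, 2341 kb from PCDH7, and chr1:194342515-194343201, the strongest region of the shared-sequence group above. For TEAD they were the region near MDFIC, chr13:82597720-82598276 with 22.6, and chr3:103794481-103795198 with 20.8. For AP-1 they were chr4:96736283-96736915, chr9:73824671-73825374 with 23.4, 672.5 kb from RORB, a nuclear receptor, and chr13:62185469-62186209 with 22.0.

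Matches gathered at the summits. CTCF matches numbered 91 in the 20 bp at the summit, 8.17 per 1000 gene desert regions. OCT4-SOX2 matches peaked at 3.14 per 1000 between 10 and 30 bp from the summit, and TEAD matches at 10.2 at the summit. AP-1 reached 11.6 per 1000 between 10 and 30 bp before the summit. Of the 6 strings plotted, AP-1 and SOX showed the highest level away from the summit relative to the peak.

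**Figure D5:**
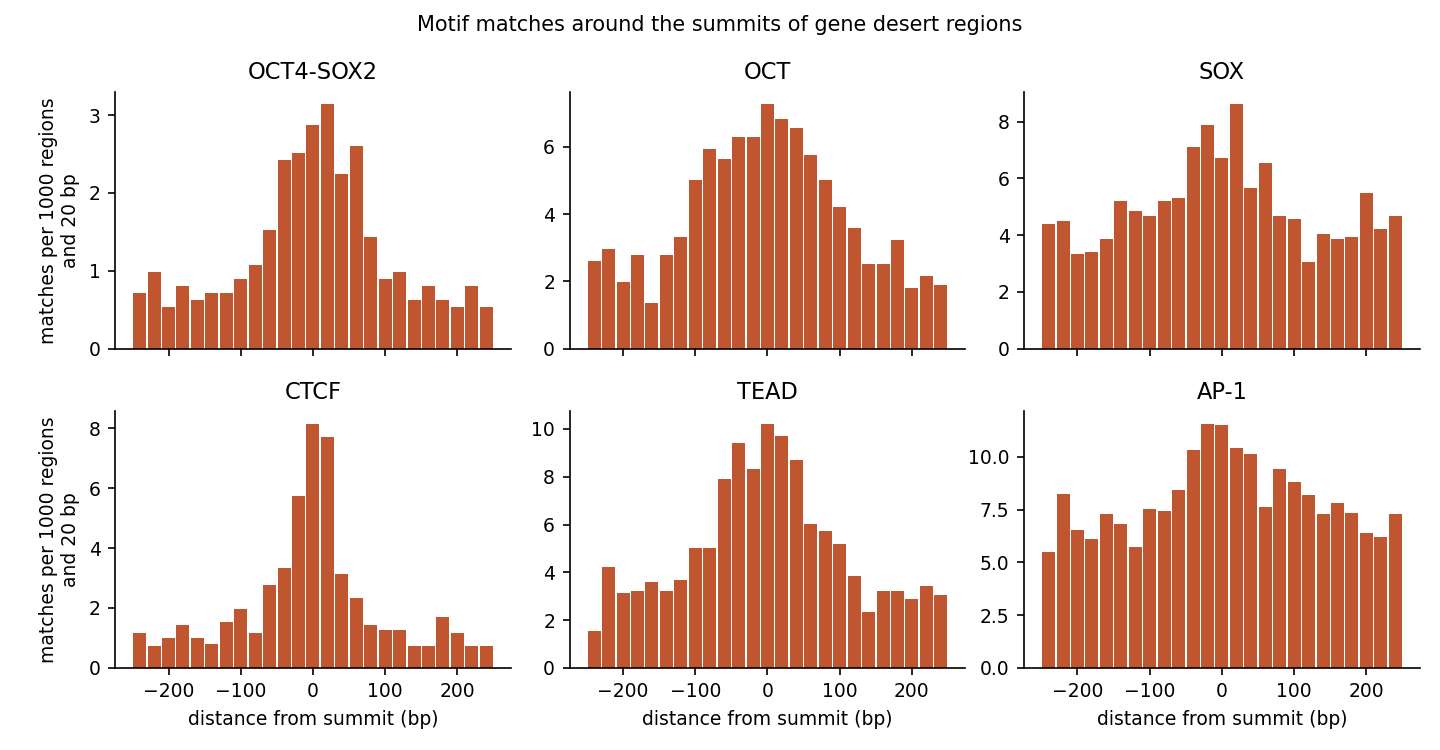
Motif matches on either strand per 1000 gene desert regions in steps of 20 bp (y axes, each from 0 with its own scale) by distance from the summit (x axes, bp), for 6 strings. CTCF reaches 8.17, OCT4-SOX2 3.14, TEAD 10.2 and AP-1 11.6 near the summit.

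Gene desert regions of the highest folds held the CTCF and OCT strings more often than those of the lowest folds. With the 11145 regions split by fold into 10 parts of equal size, the CTCF string was in 1.52% (0.891% to 2.43%) of the lowest part and 4.39% (3.27% to 5.77%) of the highest. The OCT string was in 1.08% (0.557% to 1.87%) of the lowest, 4.22% (3.11% to 5.57%) of the highest and 5.83% of the seventh. Its rise was not steady, with 3.59% in the eighth part and 2.69% (1.82% to 3.82%) in the ninth. OCT4-SOX2 was in 0.987% (0.493% to 1.76%) and 1.88% (1.17% to 2.86%), with overlapping intervals. TEAD, at 3.95% and 4.57%, and AP-1, at 5.02% and 6.28%, also had overlapping intervals in the lowest and the highest part. Width went along with fold, from a median of 315 bp in the lowest part to 644 bp in the highest.

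Of the other strings, the GC box GGGCGGG of SP and KLF factors was in 0.888% of gene desert regions, against 4.03% of other distal regions, 32.2% of promoter regions and 6.28% of all. The ZIC string CAGCAGG was in 9.42% of gene desert regions and 9.38% of other distal regions, against 4.16% of promoter regions, with 1.06% in the windows beside gene desert regions and 8.92% in all. The HOX string TAATTA, made of A and T alone, was in 3.08% (2.76% to 3.42%), against 1.90% of other distal regions, 0.321% of promoter regions, 6.75% of the windows beside and 1.84% of all. The RFX string GTTGCCATG was in 54 gene desert regions (0.485%) and 0.0467% of the windows beside, against 0.585% of other distal regions, 0.532% of promoter regions and 0.574% of all.

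Genes of neuronal adhesion and of development were the nearest ones to many gene desert regions. In all, 621 protein-coding genes were nearest to at least 1, and 50 of them to 50 or more. Of the gene desert regions, 2122 (19.0%, interval 18.3% to 19.8%) had a gene of the adhesion and synapse list nearest, 62 genes in all, while 16.5% of desert sequence did, as did 5.47% of intergenic regions 100 to 500 kb away and 4.58% of all regions. For developmental regulators it was 785 (7.04%, interval 6.58% to 7.53%) and 47 genes, while 4.84% of desert sequence did. In intergenic regions 100 to 500 kb away it was 2430 of 26991 (interval 8.66% to 9.35%), higher than in gene desert regions, and 4.85% in all regions. Core pluripotency genes were nearest to 35 gene desert regions (0.314%, interval 0.219% to 0.436%), against 0.756% of intergenic regions 100 to 500 kb away and 0.394% of all regions, and to 0.227% of desert sequence, which lies inside that interval. These shares of desert sequence are not given apart for the stretches with gaps or satellite-like sequence. Those stretches held 6.34 regions per Mb, against 39.9 in the others, and their part in these comparisons was not tested. Nearness does not show which gene a region acts on.

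Among developmental regulators SPRY2, an antagonist of receptor tyrosine kinase signalling, came first with 63 gene desert regions at a median fold of 5.75 and up to 22.9. ZEB2, a repressor of epithelial genes, had 48 with a median of 4.77. NR2F2 had 42 and NR2F1 had 38, both orphan nuclear receptors, with medians of 4.69 and 6.41. BCL11A, the repressor of fetal globin genes, had 40, and GATA3, a zinc finger factor of trophoblast and T cells, also had 40, with medians of 4.84 and 5.75. TLE4 had 31, POU3F3 28, SOX11 27 and DACH1 26. The density of regions in the desert sequence nearest to these 10 ran from 41.3 per Mb at ZEB2 to 68.6 at DACH1, against 31.3 in all deserts and 39.9 in stretches without gaps or satellite-like sequence, and these genes were picked for having many.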

How the data were processed

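ATAC-seq was done on 2 samples of frozen H1 cells, and 1 peak list for both was analysed. Per the submitters' processing notes the build was GRCh38. The aligner, peak caller, its settings and filters, and what was overlapped to make the list are not given in these sources. The columns follow the narrowPeak layout: the fold, a ratio of each summit to background, the −log10 p and −log10 q, and the score are the authors' deposited values, and the summit offset is a deposited position used as given. The score equalled 10 times the −log10 p, truncated and capped at 1000, in all but 12 rows and was not used further. The 236878 rows gave 160327 distinct regions, each with its strongest summit, and the list has no values per sample, so no test over samples was made.

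Genes came from GENCODE release 44 (19111 protein-coding and 18390 lncRNA genes on the autosomes) and sequence from hg38. Density used sequenced bases in tiles of 1 kb. Satellite-like sequence had 50% or more identity to itself at the period of alpha satellite. Alignments used BLAST+ 2.17.0. Motifs were 24 consensus strings, some of them simplified, so a window without a match can still hold a site. Python 3.11.15, pandas 2.3.3, scipy 1.17.1 and pysam 0.24.0 were used. The desert rule, nearest-gene search, motif search, choice of the strongest summit and median interval were tested on simulated data. Intervals of shares are Clopper-Pearson. The regions, gene lists and motifs were chosen with earlier results of these data known. Named are the regions and stretches with the highest values by fixed rule (10 strongest, 3 farthest, widest and with most summits, 10 stretches with most regions, 5 longest empty stretches, 10 lncRNA starts, 3 per motif, 10 developmental regulators, 3 largest groups); others are said to be chosen later. Some items under this rule are not reported here.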

Additional observations from a re-analysis of the deposited data

How the results depend on the processing

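Of 85 recomputed values, 60 stayed within the interval of the reported value or, for the number of regions, within 1.5 times it (9259 with every transcript start to 14674 with every summit), and 25 did not. Taking regions over 250 kb or over 1000 kb from a 5′ end gave 22477 or 3375 regions against 11145, at 37.5 or 22.1 per Mb. Over 250 kb, 1.99% were at a lncRNA 5′ end and 8.33% nearest to a developmental regulator; over 1000 kb, 3.56% were, and 0% aligned to mitochondrial DNA. Keeping regions with a −log10 p above the median left 4972, at 13.95 per Mb, with a median fold of 8.97 and 3.52% with CTCF. Counting every summit gave 41.2 per Mb, a median fold of 4.70, 2.09% at lncRNA 5′ ends and 2.32% with CTCF. Using every transcript start gave 29.4 per Mb. Density was 34.2 without satellite-like sequence and, in alternatives added after seeing the data, 29.0 without regions similar to another member and 39.9 without stretches with gaps or satellite-like sequence. Within 25 or 100 bp of the summit, OCT4-SOX2 was in 0.538% or 2.01% and CTCF in 1.67% or 3.59%. Within 500 bp, 1.18% were at a lncRNA 5′ end. These settings count fewer or more regions, bases or windows by construction. No paired analysis was possible because there is 1 group and the list has no values per sample, and for the same reason no replicate could be left out. Depth per library was not analysed here, so weak regions cannot be told from background by depth.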

Other observations

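The few CpG-rich gene desert regions differed from the rest in place. Of the 136 with a CpG ratio of 0.6 or more, 24 (17.6%, interval 11.6% to 25.1%) were at a lncRNA 5′ end, against 1.51% of the other 11009. The GC box string was in 14.7% (9.22% to 21.8%), against 0.718% of the others. Their median fold was 6.61 (5.67 to 7.75), against 5.33. Of these 136, 78 (57.4%) lay in stretches with gaps or satellite-like sequence, against 4.55% of the others, and the part of these stretches in the differences was not tested.

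Stretches of similar length differed several-fold in density, and the examples here were chosen after their values were seen. Among stretches of 1 Mb or more without gaps or satellite-like sequence, the stretch between SPDYE21 and AUTS2 on chromosome 7 was a sparse one, with 19 regions in 1.32 Mb (14.4 per Mb), and that between TMPRSS15 and NCAM2, a neural cell adhesion gene, on chromosome 21 had 26 regions at 17.2 per Mb. The densest was between PCDH17 and DIAPH3 on chromosome 13, with 115 regions at 75.1 per Mb, and it held the 100 kb window with the most regions, 15. The stretch between SORCS3 and SORCS1 on chromosome 10 had 65.0 per Mb. The median fold was 7.23 over the 44 regions between DPP10 and DDX18 on chromosome 2, and 4.37 over the 41 regions between POT1 and GRM8 on chromosome 7, the lowest of these stretches.

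Some lncRNA genes spanned many gene desert regions. LINC03000 on chromosome 5 held 46 in 874.9 kb, with a median fold of 6.35, MIR924HG on chromosome 18 held 32 in 593.4 kb with a median of 6.17, and LINC02147 on chromosome 5 held 30 in 535.8 kb with a median of 5.38. These genes were also chosen after their values were seen. Of 55 microRNA genes in the stretches, 9 had a gene desert summit within 1000 bp, the nearest being MIR4643 at 116 bp and MIR663A at 220 bp. The share of desert sequence that lies as near to a summit is not given, so the count is only a description.

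Of the core pluripotency genes, KLF4 was nearest to 16 gene desert regions with folds up to 14.9, DPPA4 to 11 with folds up to 11.4, SOX2 to 4 with folds up to 14.6 and ZFP42 to 2 with folds up to 20.0, genes named after their values were seen.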
